A study of Mus musculus with 8 samples.

Results

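The genes for the proteins of the mitochondrial ribosome were examined in epididymal fat of mice that lack Abhd15, a protein of fat cells linked to the suppression of lipolysis by insulin. Members were all genes whose single annotated symbol begins with Mrpl or Mrps and a number, and for each gene the probe set with the highest mean over the 8 arrays was kept. The rule found 71 genes among 22180 named genes, 43 of the large subunit (Mrpl) and 28 of the small subunit (Mrps). The array annotation and current mouse gene symbols gave the same names for all of them. The data come from male C57BL/6J mice on normal chow, 14 weeks old, that were fasted overnight and given food again for 1 h. Epididymal white adipose tissue was taken from 5 Abhd15 knockout (KO) mice and 3 wild-type (WT) mice, and 200 ng of RNA from each mouse went on 1 Affymetrix Mouse Gene 2.0 ST array. The sources used here name neither the knockout allele nor whether the mice were littermates. All values are log2 signals made with RMA (robust multi-array average), so a difference of 1 is a doubling of signal, and signals of different probe sets cannot be compared as amounts of RNA.

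Mitochondria carry their own ribosome, which translates the few respiratory chain subunits encoded in mitochondrial DNA. Its RNAs come from the mitochondrial genome, while its proteins are encoded in the nucleus, made in the cytosol and imported. Some of these proteins descend from bacterial ribosomal proteins and others were added during the evolution of mitochondria. In fat cells mitochondria oxidise fatty acids and supply precursors for lipid synthesis. Mrpl and Mrps in a symbol do not always match the structure: Mrps30 and Mrps18a lie in the large subunit, and Mrps36 is now known as a subunit of the oxoglutarate dehydrogenase complex.

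Abhd15 itself read 5.77, 6.07, 6.27, 5.60 and 5.75 in KO 1 to KO 5, against 6.36, 6.45 and 6.14 in WT 1 to WT 3, a difference of -0.43 (SE 0.170, adjusted p = 0.423). A second, dimmer probe set read 3.33, 3.65, 4.19, 3.21 and 3.31 in KO arrays, against 4.13, 4.505 and 4.07 in WT arrays, a difference of -0.70. The array labelled KO 3 lay inside the WT range on both probe sets, and no source used here places the probes inside or outside the deletion, so the signal does not check the genotype labels. Markers of mature adipocytes were strong, with a mean over 14 genes of 10.15 to 10.55 in KO arrays and 10.38 to 10.56 in WT arrays. Of these 14 genes 10 had a lower signal in KO (median difference -0.12), among them the lipid droplet gene Plin4 (-0.51, unadjusted p = 0.00141, adjusted p = 0.221 in limma). The other 4 were higher, among them Cebpa (0.325, unadjusted p = 0.0416, adjusted p = 0.454 in limma). Over all 11090 tested genes, 6121 were lower and 4969 higher. Of 12 endothelial markers 8 were lower and 4 higher (median -0.37). At an unadjusted p under 0.05, 5 were called lower and 1 higher, against 6.46% and 4.04% of all tested genes. The VEGF receptor gene Kdr was at -0.69 (unadjusted p = 0.000365, adjusted p = 0.150 in limma). The part of these markers in the differences described further on was not tested. A few arrays stood apart. The mean over 13 testis genes was 4.41 in KO 4 and 5.45 and 4.76 in WT 1 and WT 2, but 3.22 to 3.67 in the other 5 arrays. For 12 epididymis and seminal vesicle genes the mean reached 3.63 in KO 4 and 3.36 in WT 1, and 1.90 to 2.16 in the other 6 arrays. Immediate early genes, induced within minutes by stimulation or handling, averaged 6.90 and 6.88 in KO 1 and KO 2, against 5.38 to 6.10 in KO 3 to KO 5 and 5.23 to 5.59 in WT. KO 5 had the lowest array weight (0.335, against 0.712 to 1.84).

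The nearest sequence upstream of the genes is shown first, because it is a feature that many members share and that their selection did not use. RefSeq (GRCm38.p6) gave a promoter window, 250 bases before to 50 bases after the start of transcription, for 62 of the 71 members, 68 windows in all. Windows were searched on both strands for letters known as binding sites of factors that control nuclear genes of mitochondria. CCGGAAG, a core of ETS sites such as those of GABPA, was in 33.8% of member windows, against 11.6% of the windows of protein-coding genes and 8.86% of all windows. AAGATGGCG, part of a site for YY1, was in 11.8% of member windows, against 1.83% of protein-coding and 1.40% of all windows. GCGCA followed by its reverse complement is the full palindrome of NRF1. It was in 4.41% of member windows (3, all of the large subunit), against 1.33% of protein-coding and 0.971% of all windows. These shares were all above those of other genes. GCATGCGC, which lies within that palindrome, was in 10.3%, against 3.52% and 2.71%. Letters of any of these factors were in 33 of the 68 windows (48.5%), against 15.7% of protein-coding windows. The GC box GGGCGG was in 54.4% of member windows (46.2% of protein-coding and 35.7% of all windows), TATAAA in 7.35% (12.6% and 13.6%) and the E-box CACGTG in 10.3% (7.84% and 7.15%). For these 3 the shares lay closer to those of protein-coding genes, with TATAAA below them. Shares count windows, so a gene with several windows counts more than once. Mrpl2 is such a gene, and all its windows held the E-box. ETS letters were in 28.6% of large subunit windows and 42.3% of small subunit windows. The median GC content was 58.5% for members, 56.3% for protein-coding and 52.7% for all windows. A match describes the letters and does not show that a factor binds.

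**Figure D1:**
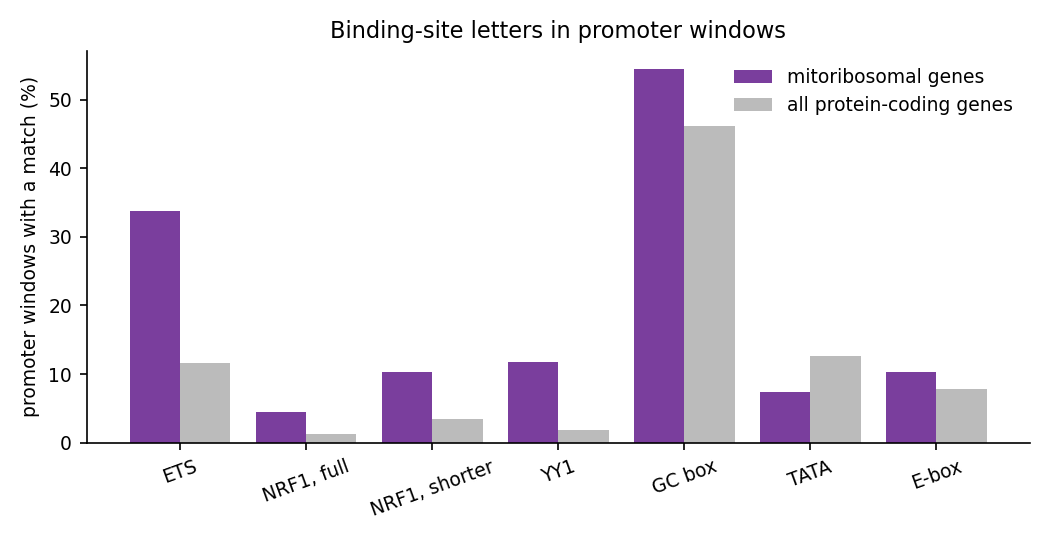
Share of RefSeq promoter windows (percent, y axis) that hold the letters of each site on either strand, for the 68 windows of mitoribosomal genes (purple) and for all protein-coding genes (grey). ETS letters were in 33.8% of member windows, against 11.6% of protein-coding windows.

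The stretches printed next are the 150 bases before the start, 5′ to 3′ on the strand of the gene, with ETS and NRF1 letters of either strand in capitals. Mrps24 and Mrps15 are shown because they had the smallest p-values of the comparison described further on. Mrpl34 and Mrps22 show ETS letters close to the start, and Mrpl32 and Mrpl39 hold the NRF1 palindrome.
Mrps24 (chr11:5707702-5707851, minus strand): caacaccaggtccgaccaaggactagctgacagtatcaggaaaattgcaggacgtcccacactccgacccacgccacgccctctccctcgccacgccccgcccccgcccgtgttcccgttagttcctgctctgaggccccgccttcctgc
Mrps15 (chr4:126046778-126046927, plus strand): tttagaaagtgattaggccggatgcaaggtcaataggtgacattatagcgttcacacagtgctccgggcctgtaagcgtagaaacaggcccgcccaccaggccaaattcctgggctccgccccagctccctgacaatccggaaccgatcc
Mrpl34 (chr8:71464776-71464925, plus strand): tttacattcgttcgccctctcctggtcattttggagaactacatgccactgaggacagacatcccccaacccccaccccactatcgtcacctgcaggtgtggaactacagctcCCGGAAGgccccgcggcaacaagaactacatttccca
Mrps22 (chr9:98601680-98601829, minus strand): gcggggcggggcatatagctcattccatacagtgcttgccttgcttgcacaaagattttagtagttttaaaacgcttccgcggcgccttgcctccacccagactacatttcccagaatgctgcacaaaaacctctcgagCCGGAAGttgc
Mrpl32 (chr13:14613038-14613187, minus strand): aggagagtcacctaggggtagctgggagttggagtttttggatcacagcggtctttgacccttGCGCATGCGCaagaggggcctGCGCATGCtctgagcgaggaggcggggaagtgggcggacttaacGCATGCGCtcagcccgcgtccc
Mrpl39 (chr16:84735245-84735394, minus strand): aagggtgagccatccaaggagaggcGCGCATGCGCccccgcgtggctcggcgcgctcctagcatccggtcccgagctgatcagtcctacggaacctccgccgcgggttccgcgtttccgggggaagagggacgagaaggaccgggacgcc

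Many members also sit head to head with another gene, the starts facing apart and at most 500 bases away from each other. Of the 62 members with a window, 19 (30.6%) had such a protein-coding partner, against 7.53% of 17492 protein-coding genes. One pair consists of members of both subunits: Mrpl46, of the central protuberance of the large subunit, and Mrps11, of the platform of the small subunit, leave only 41 bases between their starts.
Between Mrpl46 and Mrps11 (chr7:78783090-78783130, on the plus strand of Mrps11): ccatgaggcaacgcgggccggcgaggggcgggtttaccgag
The other partners include Sars2, the mitochondrial seryl-tRNA synthetase, beside Mrps12, Ndufb5, a subunit of respiratory Complex I, beside Mrpl47, and Psma2, a proteasome subunit, beside Mrpl32.

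As a group, the mitoribosomal genes had a median difference between KO and WT fat that was close to 0. The tested large subunit genes had a median difference (KO minus WT) of 0.02 and the tested small subunit genes of 0.01, beside a median of -0.03 over all 11090 genes tested. Centring of the arrays moved members and all genes alike, to 0.004, -0.003 and -0.046. With the replicate number as a block the medians were 0.09 for the large and 0.07 for the small subunit, beside -0.008 over all genes. Signals low enough to fail the filter (a mean under 3.61) left 66 of the 71 members in the test, 41 large and 25 small. In bulk tissue, fewer cells of a type and less RNA per cell cannot be told apart.

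No member passed the threshold of 0.05 in limma after the Benjamini-Hochberg adjustment, where 0.0% of all tested genes passed. The smallest adjusted p of a member was 0.405. At an unadjusted p under 0.05, 2 of 66 members were called (3.03%), against 10.5% of all tested genes. Both were small subunit genes with higher signal in KO (2 of 66 members, against 4.04% of all genes called higher), and none was called lower, against 6.46% of all genes. With that block, to which KO 4 and KO 5 add nothing, 3 members had an unadjusted p under 0.05 (Mrpl21, Mrpl34 and Mrps15, all higher), and over all genes 1997 did and 2 passed the adjusted threshold, against 1164 and 0 without it. In 3 members the groups did not overlap (4.55%), Mrps24 and Mrps15 with every KO array above WT and Mrpl24 with every KO array below WT, against 8.53% of all tested genes (2.99% above and 5.54% below).

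Differences of members ran from -0.36 to 0.33, and 4 of 66 (6.06%) were 0.3 or larger in size, against 21.7% of all tested genes. The median size of a difference was 0.0983 for members and 0.153 for all tested genes. The 95% intervals give the range of differences that the data leave possible for each gene. All 66 of the tested members lay within 1 of 0 on the log2 scale (91.3% of all tested genes), the lowest bound being -0.72 and the highest 0.83. These bounds hold for the fit to all 8 arrays. In 42 members (63.6%) the interval lay within 0.5 of 0, against 40.8% of all tested genes.

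**Figure D2:**
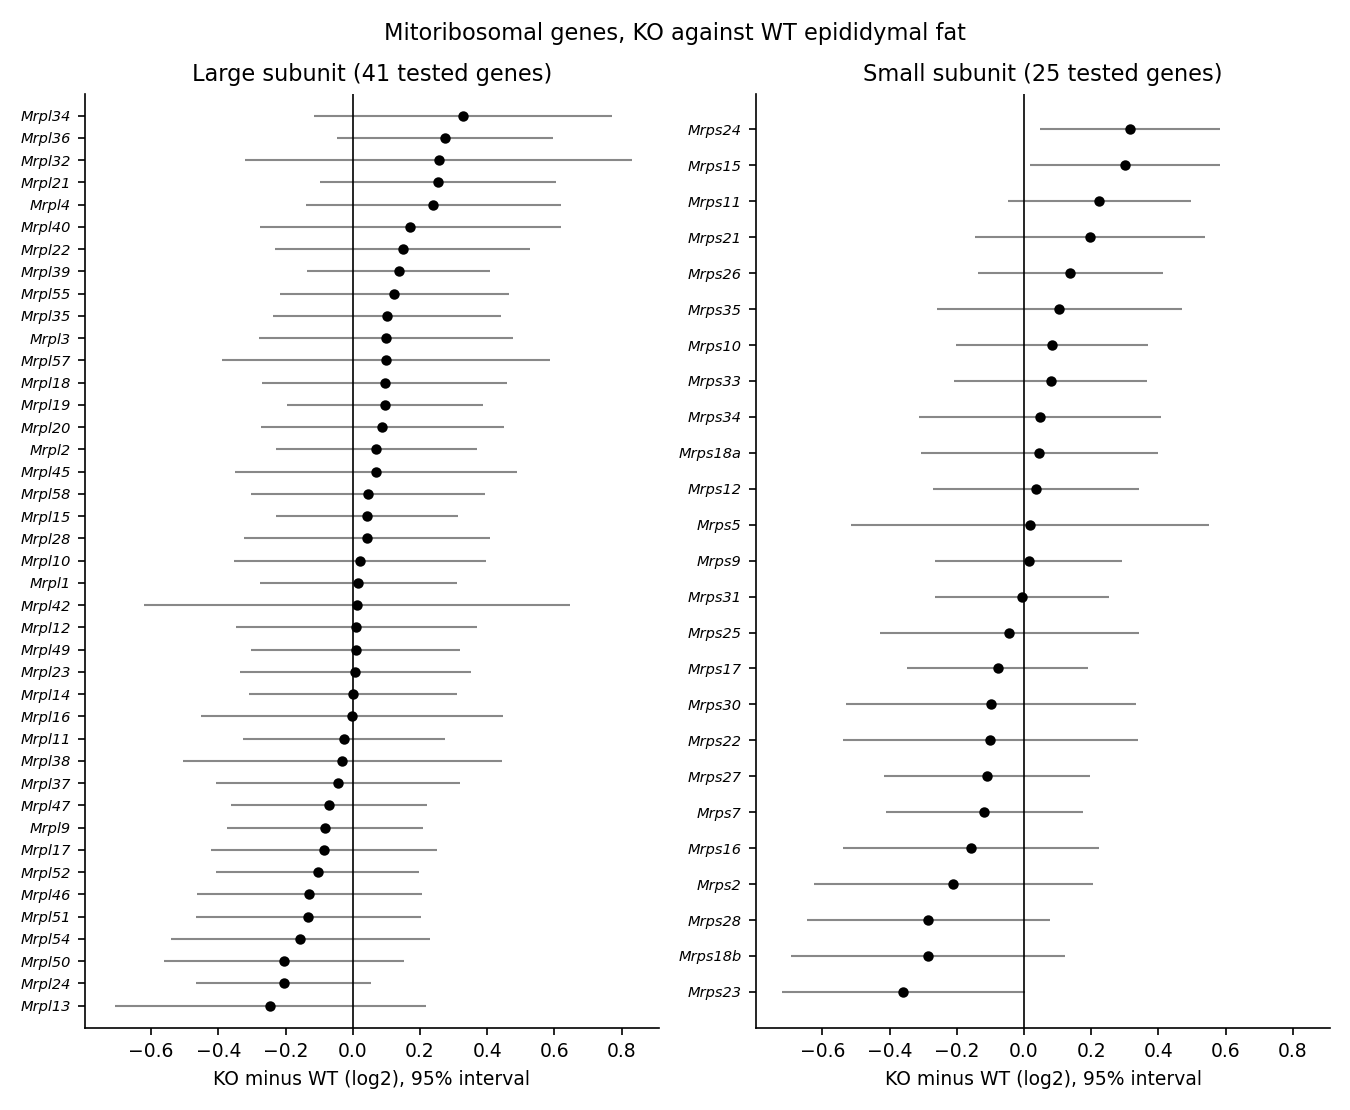
Difference in log2 signal, KO minus WT, with its 95% interval from limma for the 41 large subunit genes (left) and 25 small subunit genes (right) that were tested, sorted by size. Intervals of 64 genes hold 0, and those of Mrps24 and Mrps15 lie above it.

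Mrps24, a homologue of bacterial S3 at the mRNA entry of the small subunit, read 6.96, 6.96, 6.82, 7.12 and 7.14 in KO 1 to KO 5, against 6.68, 6.71 and 6.65 in WT 1 to WT 3. Every KO array lay above every WT array, and the WT values were close together. The difference was 0.32 (SE 0.120, unadjusted p = 0.0254, adjusted p = 0.405), with 0.0357 in an exact two-sided permutation test, the smallest p that 56 divisions of the arrays allow. Mrps15, a homologue of bacterial S15, read 8.60, 8.38, 8.48, 8.28 and 8.51 in KO arrays, against 8.22, 7.98 and 8.24 in WT arrays. The lowest KO array, KO 4, lay 8.283 against 8.243 in the highest WT array, so the gap was narrow. The difference was 0.30 (SE 0.127, unadjusted p = 0.0393, adjusted p = 0.450), with the same exact permutation p of 0.0357. Without WT 1, WT 2 or WT 3 in turn, neither gene kept an unadjusted p under 0.05: it was 0.0528 to 0.0739 for Mrps24 and 0.0501 to 0.170 for Mrps15. The difference itself stayed at 0.30 to 0.33 for Mrps24 and ran from 0.22 to 0.35 for Mrps15. Nor did Mrps24 without KO 4 (unadjusted p = 0.0531 in limma) or Mrps15 without KO 1, KO 3 or KO 5 (0.0510 to 0.0840). With the replicate block the unadjusted p of Mrps24 was 0.0995 and that of Mrps15 0.0310.

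Of the small subunit genes with lower signal in KO, Mrps23, a mitochondria-specific protein, had the smallest p. It read 6.45, 6.17, 6.22, 6.20 and 5.78 in KO 1 to KO 5, against 6.67, 6.56 and 6.34 in WT 1 to WT 3. KO 1 lay inside the WT range and the other 4 KO arrays below it. The difference was -0.36 (SE 0.162, unadjusted p = 0.0508, adjusted p = 0.476). In limma its unadjusted p was under 0.05 in some other settings, such as without WT 3 (0.0401). In others it was not, such as with the replicate block (0.1). Mrps28, the counterpart of bacterial S1, read 5.60, 5.15, 5.29, 5.20 and 5.02 in KO arrays, against 5.62, 5.71 and 5.28 in WT arrays, a difference of -0.29 (SE 0.162, adjusted p = 0.564). Here KO 1 and KO 3 lay inside the WT range and the other KO arrays below it. Mrps18b, related to bacterial S18 but grouped here with the mitochondria-specific proteins, had a difference of -0.29 (SE 0.183, adjusted p = 0.609) and Mrps2, a homologue of S2, of -0.21 (SE 0.187, adjusted p = 0.726), with overlapping groups in both.

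Mrps11 read 5.35, 5.50, 5.35, 5.189 and 5.54 in KO arrays, against 5.15, 5.15 and 5.191 in WT arrays, a difference of 0.22 (SE 0.122, adjusted p = 0.548), and only KO 4 overlapped WT. Its head-to-head partner Mrpl46 had a difference of -0.13 (SE 0.150, adjusted p = 0.798). Mrps21, a homologue of S21, had a difference of 0.20 (SE 0.153, adjusted p = 0.686). Mrps12, a homologue of S12 at the decoding centre, averaged 4.28 ± 0.195 in KO and 4.24 ± 0.0180 in WT (SD, n = 5 and 3), a difference of 0.04. Mrps22 averaged 5.13 ± 0.345 in KO and 5.23 ± 0.155 in WT, and Mrps16 5.32 ± 0.248 and 5.48 ± 0.222. Variants in both genes are known from human mitochondrial disease. Their differences of -0.10 and -0.16 were smaller than the SD within KO, and Mrps22 turned to 0.125 with the replicate block.

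Among large subunit genes the smallest unadjusted p was that of Mrpl36, a homologue of bacterial L36. It read 4.88, 4.83, 5.16, 4.83 and 4.66 in KO 1 to KO 5, against 4.57, 4.79 and 4.44 in WT 1 to WT 3, a difference of 0.28 (SE 0.145, unadjusted p = 0.0864, adjusted p = 0.541). Only KO 5 fell inside the WT range, but a second, dimmer probe set of the gene differed by -0.13, and the mean of both by 0.07. Mrpl34, a homologue of L34, read 7.30, 7.02, 6.71, 6.65 and 6.38 in KO arrays, against 6.62, 6.37 and 6.48 in WT arrays, a difference of 0.33 (SE 0.198, adjusted p = 0.589). The highest values came from KO 1 and KO 2, the arrays with the highest immediate early genes; without those 2 arrays the difference was 0.10. It was 0.53 with the replicate block (unadjusted p = 0.0117, adjusted p = 0.177 in limma), 0.45 with array weights and 0.44 without KO 5. Mrpl21 (0.25, SE 0.158, adjusted p = 0.597) was likewise highest in KO 1 and KO 2 (4.87 and 4.98, against 4.44 to 4.57 in KO 3 to KO 5 and 4.31 to 4.48 in WT), and the difference was 0.08 without them and 0.36 with the replicate block. The part of immediate early genes in these values was not tested. Mrpl4, a homologue of L4, had a difference of 0.24 (SE 0.170, adjusted p = 0.646).

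Mrpl24, a homologue of L24 near the exit of the peptide tunnel, read 7.99, 7.98, 7.93, 7.92 and 7.96 in KO arrays, against 8.35, 8.04 and 8.10 in WT arrays. The KO values were closely spaced below all WT values, and WT 1 was the highest. The difference was -0.21 (SE 0.117, unadjusted p = 0.110, adjusted p = 0.565; exact permutation p = 0.0357) and -0.11 without WT 1. The other large subunit genes with lower signal and the smallest p were the mitochondria-specific Mrpl50 (-0.21, SE 0.160, adjusted p = 0.686) and Mrpl54 (-0.16, SE 0.173, adjusted p = 0.786) and the L13 homologue Mrpl13 (-0.24, SE 0.208, adjusted p = 0.713), all with overlapping groups, and Mrpl13 turned to 0.03 with the replicate block. Mrpl12, which forms the flexible stalk that recruits translation factors, averaged 6.14 ± 0.153 in KO and 6.13 ± 0.313 in WT, a difference of 0.01 (SE 0.162), which turned to -0.06 with the replicate block.

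**Figure D3:**
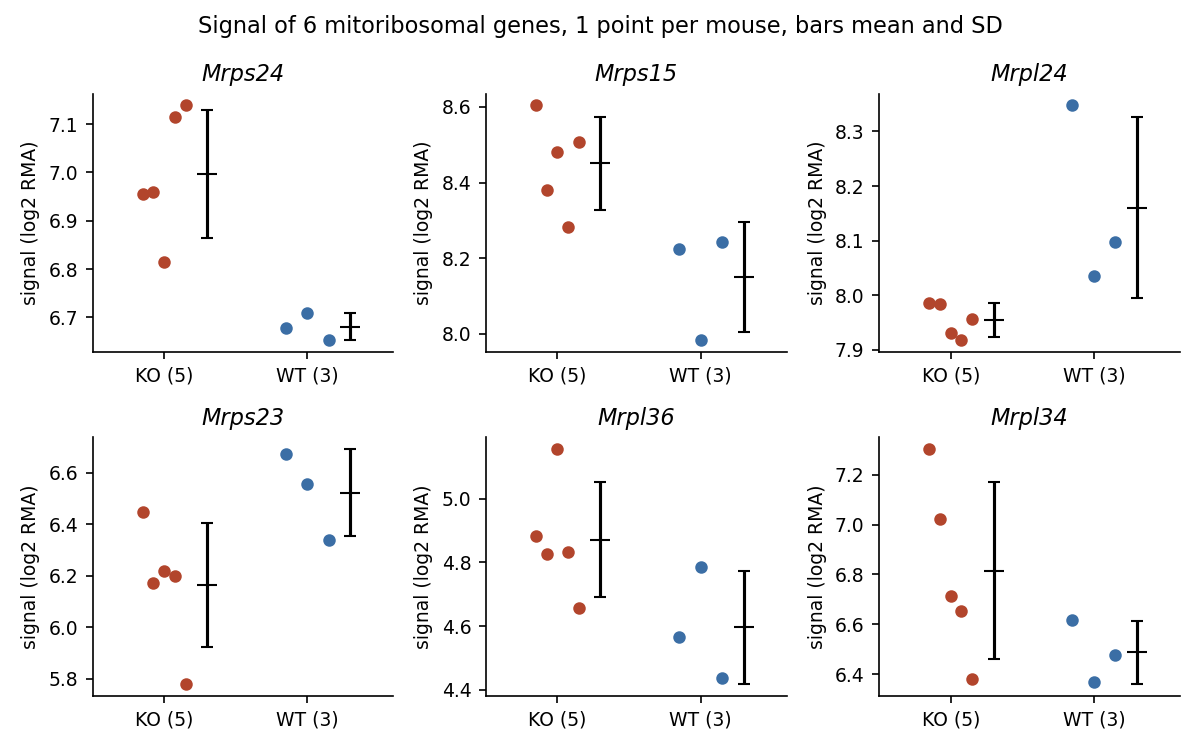
Log2 signal (y axes, not starting at 0) of 6 mitoribosomal genes in each mouse, KO (red, 5 arrays) left of WT (blue, 3 arrays), with mean and SD in black. KO and WT do not overlap for Mrps24, Mrps15 and Mrpl24, while KO and WT overlap for Mrps23, Mrpl36 and Mrpl34.

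By place and origin in the ribosome, the medians stayed close to 0. Of 26 tested large subunit genes with a bacterial homologue, 19 had a higher and 7 a lower signal in KO (median 0.04). Of 14 mitochondria-specific large subunit genes, 7 were higher and 7 lower (median -0.01). In the small subunit, 8 of 13 genes with a bacterial homologue were higher (median 0.02), Mrps24 and Mrps15 among them, and 4 of 10 mitochondria-specific ones (median -0.03). Over all tested genes 44.8% had a higher signal in KO. The 4 genes grouped here as stalks and stalk base (Mrpl1, Mrpl10, Mrpl11 and Mrpl12) differed by -0.03 to 0.02. The 5 of the tunnel exit differed by -0.21 to 0.15 (median 0.01). The 4 tested of the central protuberance differed by -0.13 to 0.17 (median 0.03). No gene of these 3 groups had an unadjusted p under 0.05 in limma, against 10.5% of all tested genes.

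The subunits were then set against each other within each array. The mean over large subunit genes minus the mean over small subunit genes was 0.07, 0.07, 0.04, 0.05 and 0.03 in KO 1 to KO 5, against 0.04, 0.01 and -0.02 in WT 1 to WT 3. KO 3 and KO 5 lay below WT 1, so the groups overlapped. Between same-numbered arrays, KO minus WT was 0.03, 0.06 and 0.06, and KO 4 and KO 5 have no such partner. The KO mean was 0.053 ± 0.0174 and the WT mean 0.010 ± 0.0294 (SD, n = 5 and 3), a difference of 0.04. That is a few percent of signal, and it came to 0.02 when the 5 members of low signal were counted as well. Of large subunit genes 27 of 41 were higher in KO and of small subunit genes 13 of 25, beside 44.8% of all tested genes. After centring, which shifts all genes of an array alike, these counts were 21 and 11, beside 41.8% of all tested genes.

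The members' signals differed more between single mice than between the genotypes. Measured as the median deviation of members from their own means over the 8 arrays, the large subunit stood at 0.15, 0.03, -0.02, -0.04 and -0.16 in KO 1 to KO 5 and at 0.10, -0.07 and -0.06 in WT 1 to WT 3. The small subunit stood at 0.14, 0.04, -0.02, -0.06 and -0.07 in KO arrays and at 0.11, -0.12 and 0.003 in WT arrays. Both subunits were thus highest in KO 1 and WT 1, and both genotypes spanned the zero line. By count of genes the same arrays stood out. In KO 1, 53 of 66 members (80.3%) lay above their own mean, against 57.1% of all tested genes. In WT 2 only 17 (25.8%) did, against 53.9% of all tested genes, and in KO 5 20 (30.3%), against 38.8%. KO 5 held the lowest value of 24 members (36.4%), against 28.9% of all tested genes, and KO 1 the highest value of 21 (31.8%), against 17.3%.

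Genes of Complex I, the first enzyme of the respiratory chain, were taken by symbol (Ndufa, Ndufb, Ndufc, Ndufs or Ndufv and a number). The symbols also take in genes such as Ndufa4l2, and membership in the complex was not checked. These genes were high and low in several of the same arrays. The 32 tested had median deviations of 0.21, 0.14, 0.01, 0.02 and -0.18 in KO 1 to KO 5. In WT 1 to WT 3 the median deviations were 0.02, -0.14 and -0.07. Cytosolic ribosomal proteins (49 tested) took a different course, with 0.01, -0.16, 0.10, 0.09 and -0.16 in KO arrays and 0.12, 0.01 and 0.07 in WT arrays. Testis markers were raised in KO 4, WT 1 and WT 2, of which WT 1 was high and KO 4 and WT 2 were low for the mitoribosome, and immediate early genes were high in KO 1 and KO 2. Their part in the array pattern was not tested.

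**Figure D4:**
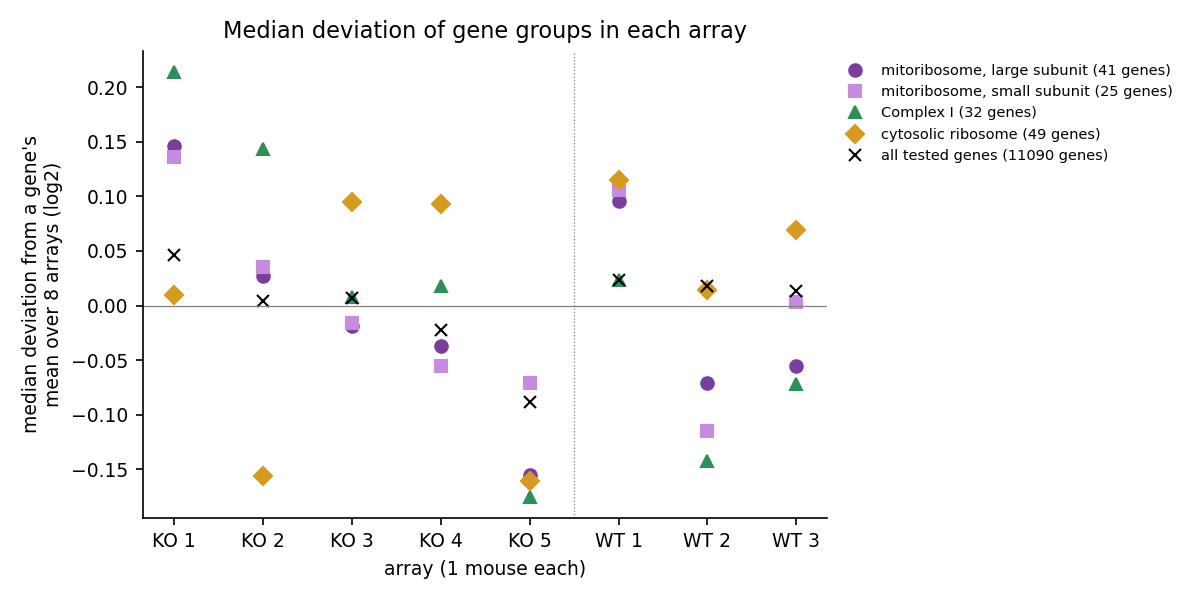
Median deviation (log2, y axis) of tested genes from their own mean over 8 arrays, for each array, KO left of WT. Points stand for large and small mitoribosomal subunits, genes taken as Complex I by symbol, cytosolic ribosomal proteins and all tested genes. Both mitoribosomal subunits were highest in KO 1 (0.15 and 0.14) and WT 1 (0.10 and 0.11).

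The spread of members across mice was slightly smaller than that of other genes, with a median SD over the 8 arrays of 0.204, against 0.243 for all tested genes. Mrpl42 had the largest SD among tested members. It read 7.60, 7.31, 6.88, 6.85 and 6.12 in KO arrays, against 6.79, 6.93 and 7.10 in WT arrays, and KO values lay on both sides of WT. Mrpl32, a protein cut to its mature form by a mitochondrial protease before it joins the ribosome, ranged from 5.03 (KO 3) to 6.33 (KO 5) among KO arrays and from 5.28 to 5.71 among WT arrays. Mrps5, a homologue of bacterial S5, read 6.73, 6.56, 6.56, 6.50 and 5.56 in KO arrays and 6.39, 6.33 and 6.37 in WT arrays, so that 4 KO arrays lay above and 1 far below WT. Of the 3 brightest members of each subunit, Mrpl52 (-0.10), Mrpl39 (0.14) and Mrps7 (-0.12) differed by no more than 0.14 between KO and WT. The others, Mrps15 (0.30), Mrps24 (0.32) and Mrpl24 (-0.21), differed more and are described above.

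Of the 5 members below the filter, Mrpl27, Mrpl48, Mrps14, Mrps18c and Mrps36, none had groups that did not overlap, against 8.53% of all tested genes. Their differences ran from -0.15 (Mrpl27) to 0.29 (Mrps36). At such low signals a change in RNA may leave little trace. The central protuberance gene Mrpl40, the dimmest of the large subunit to be tested, averaged 4.46 ± 0.344 in KO and 4.29 ± 0.206 in WT (difference 0.17, SE 0.201).

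A second probe set existed for 9 members, and in 5 of them the probe sets differed in sign: Mrpl10 (0.02 for the brighter, -0.19 for the dimmer), Mrpl12 (0.01 and -0.15), Mrpl36 (0.28 and -0.13), Mrps17 (-0.08 and 0.13) and Mrps18c (0.16 and -0.06). The same sign was seen for Mrpl47 (-0.07 and -0.31), Mrps5 (0.02 and 0.04), Mrps16 (-0.16 and -0.48) and Mrps18b (-0.29 and -0.12). For 7 further mitoribosomal genes (Mrpl30, Mrpl33, Mrpl41, Mrpl43, Mrpl44, Mrpl53 and Mrps6), the array has only probe sets annotated together with another gene, so their values cannot be assigned and they are no members. The probe set shared by Mrpl44 and Wdfy1 differed by -0.02.

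The genes that build and serve the mitoribosome also gave no call at the adjusted threshold. Of 21 tested genes of mitoribosome assembly and rRNA modification, 9 were higher and 12 lower in KO (median -0.04), and 2 in each direction had an unadjusted p under 0.05, 4 of 21 genes, against 4.04% of all tested genes called higher and 6.46% called lower. They include Mrm3, a methyltransferase of the large rRNA (-0.51, SE 0.202), Ybey, an rRNA-processing nuclease (0.37, SE 0.149), and Fastkd2, an RNA-binding assembly factor of the large subunit (-0.34, SE 0.141), with adjusted p of 0.417, 0.430 and 0.442. Of 14 mitochondrial translation factors, 5 were higher and 9 lower (median -0.06), and the release factor Mtrf1l had the smallest p (-0.42, SE 0.165, adjusted p = 0.416). Of 18 genes that charge mitochondrial tRNAs, 10 were higher and 8 lower (median 0.04), with the tyrosyl enzyme Yars2 at -0.42 (SE 0.154), the glutamyl enzyme Ears2 at 0.40 (SE 0.145, both adjusted p = 0.378) and the cysteinyl enzyme Cars2 at -0.39 (SE 0.172, adjusted p = 0.460).

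Of 9 tested genes for replication and transcription of mitochondrial DNA, 2 were higher and 7 lower (median -0.19). None had an unadjusted p under 0.05 in limma, against 10.5% of all tested genes. The mitochondrial RNA polymerase Polrmt was at -0.25 (SE 0.140, adjusted p = 0.556). Of 9 regulators of mitochondrial genes, 3 were higher and 6 lower (median -0.24). The coactivator Ppargc1b averaged 5.26 ± 0.245 in KO and 5.98 ± 0.279 in WT (SD, n = 5 and 3; difference -0.72, SE 0.178, unadjusted p = 0.00241, adjusted p = 0.254). Gabpb1, the partner subunit of the ETS factor GABPA, averaged 4.38 ± 0.154 in KO and 4.86 ± 0.170 in WT (difference -0.48, SE 0.137, unadjusted p = 0.00599, adjusted p = 0.308), and Gabpa 6.80 ± 0.156 and 7.07 ± 0.159 (difference -0.28, SE 0.136, adjusted p = 0.506). Beside these values, the 20 tested members with ETS letters in their promoter window had a median difference of 0.04 and the 37 without them of 0.01. Members with YY1 letters (8) had a median of 0.07 and those without (49) of 0.01. For the full NRF1 palindrome the medians were 0.136 with it (3) and 0.015 without it (54). For GCATGCGC they were 0.021 with it (7) and 0.015 without it (50). The part of these factors in the differences of members was not tested. Mitoribosomal proteins that carry other names gave 0.08 for Dap3, a GTP-binding protein of the small subunit, 0.05 for Ptcd3 and -0.38 for Gadd45gip1 (adjusted p = 0.494).

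**Figure D5:**
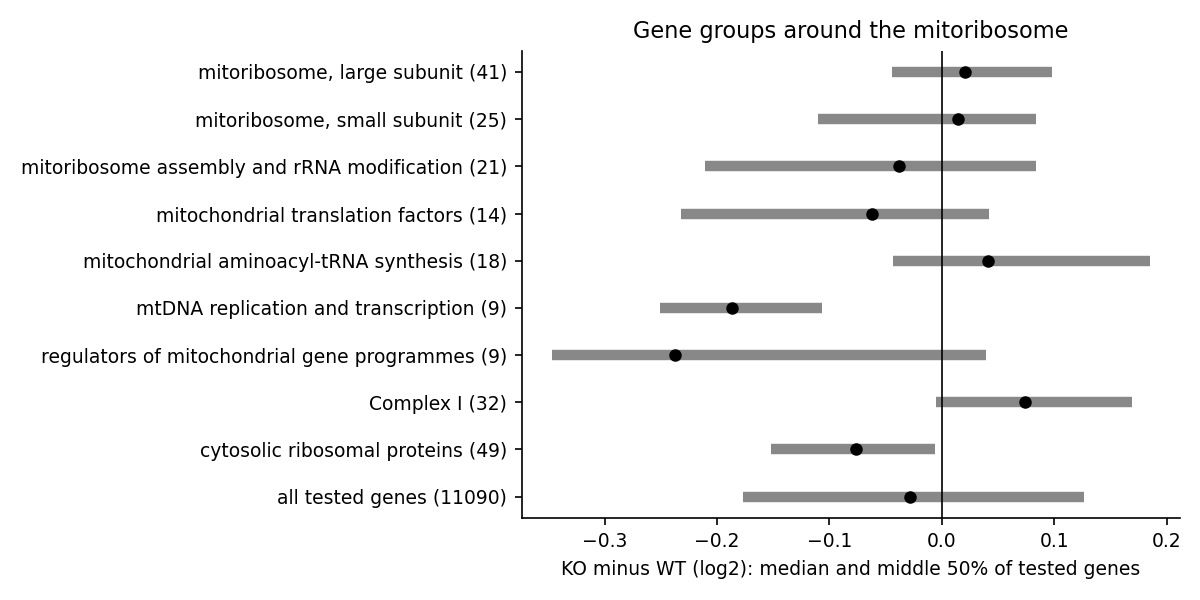
Median (point) and middle 50% (bar) of the difference KO minus WT (log2, x axis) over the tested genes of each group, with their number in brackets. The mitoribosomal subunits (0.02 and 0.01) lie near 0, above the median of all tested genes (-0.03).

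Of the 32 tested genes taken as Complex I by symbol, 23 were higher and 9 lower in KO (median 0.07). Ndufv1, a subunit of the electron input module, was the one gene with an unadjusted p under 0.05 in limma (0.32, SE 0.130, adjusted p = 0.434). Cytosolic ribosomal proteins had 12 of 49 higher and 37 lower (median -0.08). None of them had an unadjusted p under 0.05 in limma, against 10.5% of all tested genes. Of the partners that lie head to head with a member, 14 pairs could be compared with both genes tested. In 6 of them the difference had the same sign in both genes, with the pair of Mrpl46 and Mrps11 counted from each side. Sars2 was at -0.03 beside Mrps12 at 0.04. Tmem63b, a membrane channel gene and the partner of Mrpl14 (starts 131 bases apart), was the one partner with an unadjusted p under 0.05 (0.80, SE 0.177, unadjusted p = 0.00111, adjusted p = 0.202), whereas Mrpl14 itself differed by 0.001.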

How the data were processed

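The authors deposited log2 signals, 1 for each probe set on each array. Per the submitters' processing notes RMA and oligo were used, while the series design text names Expression Console. No source used here gives versions or a build. Of 41345 probe sets, 23521 had 1 gene symbol in the platform annotation, 1814 several and 16010 none listed. Symbols were updated by Entrez identifier for 23328. The level filter kept the brighter 11090 genes, those reaching the median gene mean of 3.61. Differences, KO minus WT, came from limma 3.58.1 (R 4.3.3), two-sided, with Benjamini-Hochberg adjustment over all tested genes; single genes also by an exact permutation test (scipy 1.17.1). The scripts were tested on simulated data. The number of arrays limits the precision.

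Named members were, per subunit and direction, the 4 with the smallest p; the 3 brightest and 3 dimmest and the 2 of largest SD per subunit; those with several probe sets; and Mrpl12, Mrps12, Mrpl44, Mrps16 and Mrps22. Of other lists up to 3 genes with the smallest p are named. Members and lists were chosen with earlier results of these data known. Promoter windows and head-to-head pairs came from RefSeq. KO and WT share replicate numbers 1 to 3. Same-numbered arrays deviated from their groups with correlations of 0.133, 0.103 and 0.192 over the tested genes, all above 0.1. The other combinations ran from -0.244 (WT 3 with KO 1) to 0.105 (WT 2 with KO 1). Some of them were thus as large in size as those of same-numbered arrays. By the threshold of 0.1 for every pair, the numbers were taken as pairs in the fit with a replicate block. The sources used here do not state whether same-numbered arrays are pairs or whether any arrays share a batch. Alternatives were other level filters, the mean of probe sets, centring, quantile normalization, array weights, a trended robust prior, the replicate block, subunits assigned by structure and each array left out. Leaving out WT 1 with KO 4, and KO 1 with KO 2, was added after seeing the data.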

Additional observations from a re-analysis of the deposited data

Results flagged for a closer look

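In Mrps5, KO 5 stood far from the other KO arrays: it read 5.562, against 6.496 to 6.73 in KO 1 to KO 4 and 6.33 to 6.39 in WT. The gap to the nearest KO array was 0.80 of the range of the KO group, above the critical value of 0.71 for 5 samples. It was the one such array among 38 sets of KO values looked at. Chance gives about 1 in 20 sets, so 1 among 38 is no more than chance gives. KO 5 also held the lowest value of 28.9% of all tested genes.

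The probe set shared by Mrps6, a small subunit gene, and Slc5a3, an inositol transporter, is outside the comparison because its signal cannot be assigned to either gene. It read 7.65, 7.80, 7.28, 7.36 and 7.11 in KO 1 to KO 5, against 6.71, 7.01 and 6.93 in WT 1 to WT 3, a difference of 0.559. All KO arrays lay above all WT arrays (exact two-sided permutation p = 0.0357, the smallest possible). Over all tested genes, groups did not overlap in 8.53%, and in 2.99% with KO above. It was the 1 of 13 shared probe sets (7.69%) without overlap and was singled out after their values were seen.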

How the results depend on the processing

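No mitoribosomal gene passed the adjusted threshold under any of the 19 settings, the smallest adjusted p being 0.177. Over all genes, 40 passed with array weights, 3 with a trended robust prior, 2 with the replicate block and 0 to 5 with 1 array left out (5 without KO 5), against 0. At an unadjusted p under 0.05 the count of 1164 genes came to 1871 without a level filter, 1873 with array weights, 1997 with the replicate block, 732 without WT 1 and KO 4, and 745 to 1596 with 1 array left out (745 without WT 1). The count of 2 members came to 1 with centring (Mrps24), 5 with array weights and 3 with the replicate block. It came to 1 without WT 1 and KO 4 (Mrps15). With 1 array left out it was 0 to 3 (0 without WT 1 and without WT 2, 1 without KO 4). Mrps23 was called lower with quantile normalization and with a trended robust prior. It was also called lower without KO 1, without WT 3, and without KO 1 and KO 2. Over these settings its unadjusted p in limma was 0.024 to 0.0433. Mrps28 was called lower without KO 1 (0.0344) and without WT 3 (0.0456). Without WT 3 no member was called higher. The large minus small difference of 0.04 was 0.019 without a filter and at the 25th percentile, and 0.028 to 0.058 with 1 array left out. With subunits assigned by structure it was 0.038. The medians of 0.02 (large) and 0.01 (small) were 0.091 and 0.066 with the replicate block and 0.079 and 0.040 with array weights. With 1 array left out they ran from 0.003 to 0.071 and from -0.045 to 0.044, and without KO 1 and KO 2 they were -0.051 and -0.043. Of the named members, 11 turned in sign or came to 0 under some setting, none past the adjusted threshold. With the replicate block Mrpl12 turned to -0.063, Mrpl13 to 0.033 and Mrps22 to 0.125, and with array weights Mrps22 to 0.026. With the mean of probe sets Mrpl10 turned to -0.085, Mrpl12 to -0.071 and Mrps17 to 0.026. With centring Mrpl12 turned to -0.006, Mrpl42 to -0.005 and Mrps5 to -0.001. Without WT 1 and KO 4, Mrpl10 was -0.036, Mrpl42 -0.037, Mrpl47 0.008, Mrpl54 0.0, Mrps5 -0.001 and Mrps22 0.038. Without KO 1 and KO 2, Mrpl10 was -0.097, Mrpl40 -0.055, Mrpl42 -0.323, Mrps12 -0.086 and Mrps5 -0.158. With 1 array left out the difference ran from -0.047 to 0.140 for Mrpl10, -0.118 to 0.185 for Mrpl12, -0.149 to 0.222 for Mrpl42, -0.195 to 0.004 for Mrpl47, -0.040 to 0.089 for Mrps12 and -0.070 to 0.222 for Mrps5. The causes were not tested. The number of arrays and the low signal of 5 members limit what could be seen.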
